A study of Mus musculus with 7 samples.

Results

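Histone H3, S6, GAPDH and Ki-67 were followed as measures of cell content around vascular amyloid in the mouse brain. They are 4 of the 31 antibody probes of a GeoMx digital spatial profiling (DSP) panel and were taken by name: the 3 housekeepers of the panel, which are meant to report how much cellular material a region holds, and Ki-67, its probe for dividing cells. In this assay each antibody carries an oligonucleotide tag that is cut off by ultraviolet light within a circle of tissue, and the released tags are counted. Brains of PDAPP mice were used, an inbred transgenic line that deposits human amyloid-β (Aβ), aged 23 to 26 months and treated for 3 months. Control mice received IgG (IgG2a isotype) at 50 mg/kg in 2 subcutaneous injections a week, and treated mice received 3D6 (IgG2b), an antibody to Aβ, at 25 mg/kg in 1 injection a week, so isotype, dose and schedule differ along with specificity. The 3 IgG mice carry the numbers 29, 37 and 49 and the 4 3D6 mice the numbers 72, 77, 81 and 83. The scan names call the IgG mice untreated, while the sample labels give them as IgG-treated. Both sexes were used in the study, and the sex of each mouse is not given in the labels.

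Circles of 100 μm around amyloid-laden vessels were profiled, 12 in the leptomeninges (regions 1 to 12) and 12 on penetrating vessels (regions 13 to 24) of each mouse. Counts were present for 166 of 168 regions, 34 leptomeningeal and 36 penetrating in IgG mice and 48 of each in 3D6 mice. Every region had the same surface area of 7859 μm2. The median total over all probes was 22754 counts per leptomeningeal region of IgG mice and 11573 of 3D6 mice, and 15707 and 9650 counts on penetrating vessels. The mouse was the replicate throughout, since the regions of a mouse share its section, slide and run. The 7 mice were read in 3 instrument runs, and both groups were present in every run (mice 49, 81 and 83, then 37 and 77, then 29 and 72).

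Histone H3 is a core protein of the nucleosome and is found wherever there is nuclear DNA. S6 is a protein of the small ribosomal subunit and follows the ribosomes of the cytoplasm. GAPDH is an enzyme of glycolysis, abundant in the cytoplasm of most cells, while Ki-67 is a nuclear protein of cycling cells that resting cells lack. Probe counts depend on the antibody as well as on the protein, so the level of one probe is not compared with that of another as an amount, and only differences between groups and sites are read. In a region that holds many cells, more cells and more protein per cell cannot be told apart.

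Levels are given on 2 scales, as the mean log2 count over the regions of a mouse and as the mean log2 ratio of the count to the negative controls, taken as the geometric mean of 3 (Rt IgG2a, Rt IgG2b and Rb IgG, antibodies with no target in the tissue, which measure non-specific binding). A ratio of 0 on that scale is the level of the negative controls. The 3 housekeepers were above that level in all 166 regions. Histone H3 had a median of 764 counts per region (lowest 59.4, highest 41230), which was 51.5 times the negative controls. S6 had a median of 2167 counts (566 to 30693), or 145 times the negative controls, and GAPDH had 667 counts (150.3 to 39264), or 45.9 times.

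Ki-67 was at the level of the negative controls. Its median was 13.7 counts per region (2.27 to 1027), or 0.902 times the negative controls, and 96 of 166 regions (57.8%) were at or under them. The regions at or under the negative controls numbered 26 of 34 in the leptomeninges and 24 of 36 on penetrating vessels in IgG mice, against 22 of 48 and 24 of 48 in 3D6 mice. Ki-67 exceeded 2 times the negative controls in 9 regions, 6 leptomeningeal and 3 penetrating, all of them in 3D6 mice and at least 1 in each of the 4. This threshold was looked at after the values were known and was not tested, and the negative controls by which it is divided themselves lay lower in 3D6 mice in the leptomeninges, as given with the treatment comparison.

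Within a mouse and site, the regions spread over a wide range. The SD over regions, with the mean of each mouse and site removed, was 1.28 for the log2 count of Histone H3, 0.89 for S6, 1.16 for GAPDH and 1.17 for Ki-67, where the median of the 28 probes was 1.17. S6 had the third lowest spread of the panel on this scale. On the log2 ratio scale the SDs were 0.83, 0.75, 0.79 and 0.63 in the same order, around a panel median of 0.75. Part of the range on the count scale was shared with the negative controls: the log2 counts of Histone H3, S6, GAPDH and Ki-67 had Pearson correlations of 0.77, 0.71, 0.75 and 0.84 with those controls over the 166 regions. Regions of a mouse share its section, slide and run, so the correlations are descriptions and carry no test.

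One mouse stood apart. In 6 regions of IgG mouse 37, 5 of them on penetrating vessels, the negative controls exceeded 10 times their median over all regions, with 183 to 1429 counts against 9.73 to 41.3 in its other 16 regions. The 4 probes were high in the same 6 regions: Histone H3 had a median of 33069 counts there and 721 in the other regions of that mouse, and GAPDH had 30314 and 624 counts. Relative to the negative controls the order was the other way, with Histone H3 at a median of 31.1 times in the 6 regions and 44.4 times in the others, and S6 at 20.5 and 82.7 times.

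The question of the first comparison was whether 3D6 treatment changed the cell-content probes around leptomeningeal amyloid. Relative to the negative controls, Histone H3 and S6 rose in 3D6 mice and GAPDH and Ki-67 did not pass the test. The log2 ratio of Histone H3 was 5.48, 5.31 and 4.79 in IgG mice 29, 37 and 49, and 6.27, 6.43, 6.06 and 6.63 in 3D6 mice 72, 77, 81 and 83. All 4 3D6 mice lay above all 3 IgG mice. The IgG mean was 5.20 ± 0.36 (SD, n = 3) and the 3D6 mean 6.35 ± 0.24 (SD, n = 4), a difference of 1.15 (standard error 0.31), or 2.23-fold, with an adjusted p of 0.014 in limma over 28 probes and an exact permutation p of 0.029, the smallest that 35 splits of 3 and 4 mice allow. Within the 3 runs the difference was 1.55, 1.12 and 0.80.

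S6 gave a like result. Its log2 ratio was 6.47, 6.01 and 6.11 in IgG mice 29, 37 and 49 and 7.39, 6.82, 7.76 and 7.95 in 3D6 mice 72, 77, 81 and 83, again without overlap. From an IgG mean of 6.20 ± 0.24 (SD, n = 3) to a 3D6 mean of 7.48 ± 0.50 (SD, n = 4) the step was 1.28 (standard error 0.35), or 2.43-fold, with an adjusted p of 0.014 in limma and an exact permutation p of 0.057. Within the runs it was 1.74, 0.81 and 0.92.

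GAPDH lay at 4.91, 4.76 and 4.48 in IgG mice and at 4.36, 4.63, 4.95 and 5.27 in 3D6 mice on the log2 ratio scale. The groups overlapped, and the difference of 0.08 (95% interval -0.63 to 0.79) had an adjusted p of 0.84 in limma. Ki-67 had an IgG mean of -0.44 ± 0.15 (SD, n = 3) and a 3D6 mean of 0.13 ± 0.52 (SD, n = 4), a difference of 0.57 (95% interval -0.19 to 1.34, adjusted p = 0.23 in limma), with 3 of 4 3D6 mice above all IgG mice. Its 2 values above 0 belonged to 3D6 mice 81 (0.37) and 83 (0.74).

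**Figure D1:**
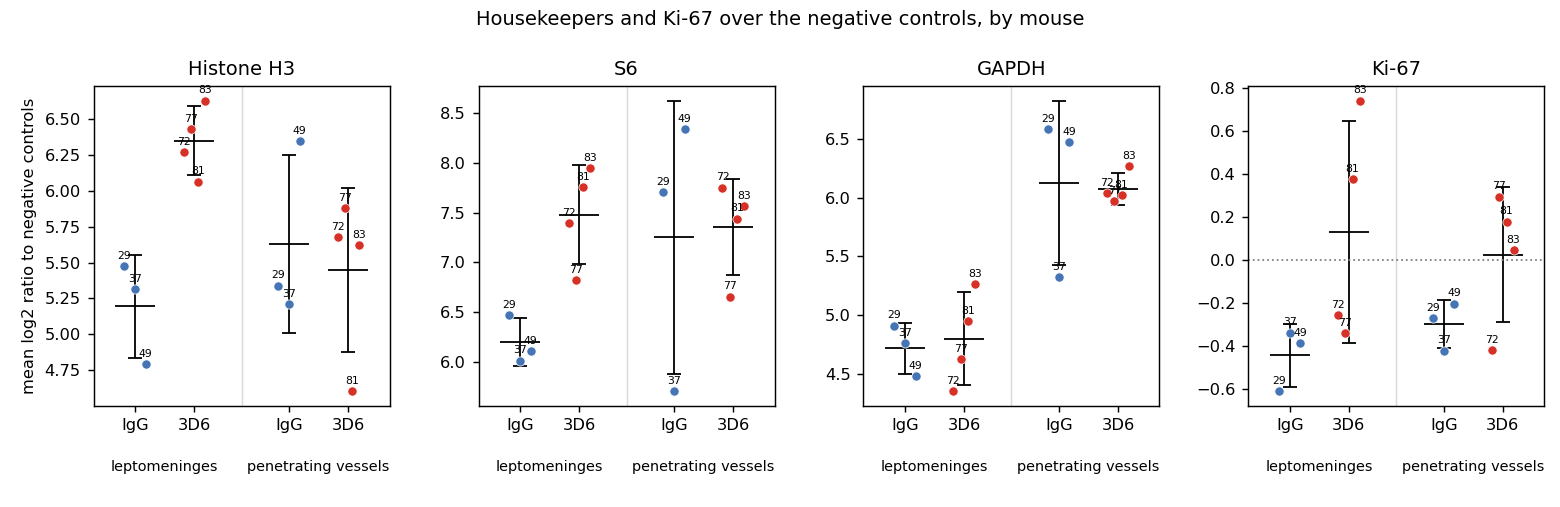
Mean log2 ratio to the negative controls of Histone H3, S6, GAPDH and Ki-67 (panels) in each mouse, by site and group (IgG mice in blue and 3D6 mice in red with their numbers, black bars for mean and SD over 3 or 4 mice). The axes of the panels differ, and the dotted line at 0 is the level of the negative controls. In the leptomeninges the 3D6 mice lie above the IgG mice for Histone H3 (difference 1.15) and S6 (1.28), and GAPDH lies lower in the leptomeninges than on penetrating vessels in both groups.

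Thus 2 of the 4 probes passed the test, where 25.0% of the 28 probes did, and 2 of 4 had all 3D6 mice above all IgG mice, where 25.0% of the panel had. The whole panel was shifted on this scale: the median difference over 28 probes was 0.65. The negative controls in the denominator lay lower in 3D6 mice, with a log2 geometric mean that averaged 4.46 ± 0.19 (SD, n = 3) for IgG and 3.84 ± 0.39 (SD, n = 4) for 3D6. All 4 3D6 mice lay below the IgG mice in this measure, a difference of -0.61 (exact permutation p = 0.057). On log2 counts, with no division, no member passed the test, where 14.3% of the panel did. S6 had 10.85, 10.68 and 10.42 in IgG mice and 11.31, 11.07, 11.66 and 11.26 in 3D6 mice, a difference of 0.67 (standard error 0.31, adjusted p = 0.19 in limma, exact permutation p = 0.029), without overlap of the groups, which 10.7% of the panel showed in this direction. Histone H3 differed by 0.54 (95% interval -0.25 to 1.33), GAPDH by -0.53 (-1.26 to 0.19) and Ki-67 by -0.04 (-0.74 to 0.67), and the panel median was 0.04.

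The calls for Histone H3 and S6 rested on small margins. Without IgG mouse 49 the differences were 0.95 (adjusted p = 0.066 in limma) and 1.24 (adjusted p = 0.056), and with Rt IgG2a as the lone negative control they were 0.77 (adjusted p = 0.10) and 0.90 (adjusted p = 0.062). Both were also lost with the Holm-Sidak adjustment (adjusted p = 0.079 for each), without the regions that carried a warning for fewer than 20 nuclei, which removed mouse 37 (1.18 and 1.14, adjusted p = 0.053 for each), and without mice 29 and 72 of a second scan (1.32 and 1.45, adjusted p = 0.063 for each). In the last 2 fits fewer mice entered, and the differences stayed near those of all 7 mice.

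Some other probes of the same leptomeningeal regions also differed between the groups, on a scale where 25.0% of the 28 probes passed. On the log2 ratio scale CD45, carried by all leukocytes, rose by 2.46, and 2 of 7 myeloid probes (the integrin CD11b, by 1.59, and a macrophage marker, by 1.48) and the matrix protein fibronectin (by 2.64) rose as well, while smooth muscle actin (SMA), 1 of 3 vessel wall probes, fell by 1.79. None of 7 T cell probes and not the epithelial probe PanCk passed. The log2 ratio of CD45 ranged from 1.39 to 1.89 in IgG mice and from 3.36 to 4.61 in 3D6 mice. The summed myeloid probes ranged from 5.60 to 6.88 and from 5.76 to 6.64, which overlap. Their median difference was 0.78, beside a panel median of 0.65. The summed vessel wall probes ranged from 9.48 to 9.87 and from 7.71 to 9.04. The median difference of these 3 probes was 0.17, so the lower sum is not read as a fall of all 3. The lowest count of any probe in any region was 0.726, so none was at 0. The part of these cells in the values of Histone H3 and S6 was not tested.

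**Figure D2:**
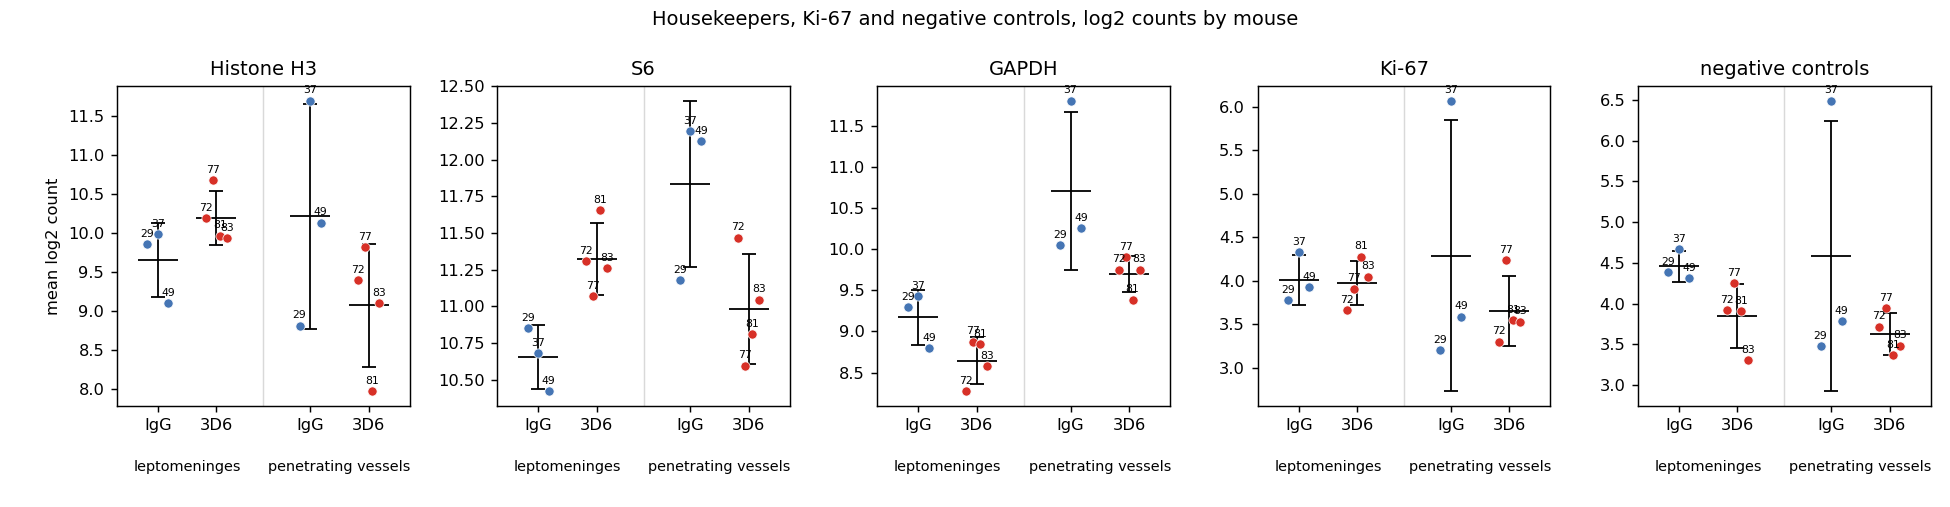
Mean log2 count of Histone H3, S6, GAPDH, Ki-67 and the geometric mean of the 3 negative controls (panels) in each mouse, by site and group (IgG mice in blue and 3D6 mice in red with their numbers, black bars for mean and SD over 3 or 4 mice, different axes between panels). S6 separates the groups in the leptomeninges (10.42 to 10.85 against 11.07 to 11.66), the negative controls are lower in 3D6 mice there, and IgG mouse 37 stands high on penetrating vessels for the negative controls and all but S6.

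Around penetrating vessels no member passed the test on either scale, and neither did any of the 28 probes (0%). Without adjustment, limma gave a p under 0.05 for 1 probe on log2 counts and 2 on log2 ratios, none of them a member. The log2 counts were lower in 3D6 mice for all 4. GAPDH had 10.05, 11.81 and 10.26 in IgG mice 29, 37 and 49 and 9.75, 9.91, 9.39 and 9.75 in 3D6 mice 72, 77, 81 and 83. This difference of -1.01 (95% interval -2.65 to 0.64, adjusted p = 0.49 in limma, exact permutation p = 0.029) left no overlap between the groups, which 10.7% of the panel showed in this direction. Histone H3 differed by -1.14 (-2.87 to 0.59), S6 by -0.85 (-2.48 to 0.77) and Ki-67 by -0.63 (-2.35 to 1.08) on log2 counts, beside a panel median of -0.99, and mouse 37 with its regions of high background was the highest IgG mouse for each. Without those regions the differences on log2 counts were -0.31 for GAPDH, -0.38 for Histone H3, -0.38 for S6 and 0.15 for Ki-67.

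Divided by the negative controls, the levels of the groups overlapped on penetrating vessels for all 4 members. For the log2 ratio of Histone H3, the IgG mean was 5.63 ± 0.62 (SD, n = 3) and the 3D6 mean 5.45 ± 0.57 (SD, n = 4), a difference of -0.19 (95% interval -1.13 to 0.76). S6 spread most among the IgG mice, with 7.71, 5.71 and 8.34 in mice 29, 37 and 49, and differed by 0.10 (-1.24 to 1.45). GAPDH differed by -0.05 (-0.86 to 0.75) and Ki-67 by 0.32 (-0.32 to 0.96). The interval of S6 on penetrating vessels includes the difference it had in the leptomeninges, and that of Histone H3 does not.

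Whether the treatment difference itself differed between the sites was tested on 1 value per mouse, its leptomeningeal minus its penetrating mean. No member passed, where 21.4% of the 28 probes did on log2 ratios and 3.57% on log2 counts. For the log2 ratio of Histone H3 this value averaged -0.44 ± 0.97 (SD, n = 3) under IgG and 0.90 ± 0.42 (SD, n = 4) under 3D6. The estimated treatment difference was 1.34 larger in the leptomeninges (standard error 0.47, adjusted p = 0.060 in limma, exact permutation p = 0.029), 2.79, 0.45 and 0.46 within the runs. S6 gave 1.18 (standard error 0.54, adjusted p = 0.13), GAPDH 0.13 and Ki-67 0.25, beside a panel median of 0.69 on log2 ratios. On log2 counts the values were 1.69 for Histone H3 (adjusted p = 0.079), 1.53 for S6 (adjusted p = 0.095), 0.48 for GAPDH and 0.60 for Ki-67, with a panel median of 1.04. Without the regions of high background these count differences were lower, at 1.03 for Histone H3 (adjusted p = 0.11 in limma), 1.13 for S6 (adjusted p = 0.055), -0.13 for GAPDH and -0.10 for Ki-67, and without IgG mouse 29 they passed for Histone H3 (2.49, adjusted p = 0.0031) and S6 (1.95, adjusted p = 0.012). On the ratio scale, Histone H3 (1.41, adjusted p = 0.036 in limma) and S6 (1.51, adjusted p = 0.021) both passed once the regions of high background were left out, a choice made after the data were seen. They also passed with mouse 37 left out altogether, at 1.61 for Histone H3 (adjusted p = 0.022) and 1.86 for S6 (adjusted p = 0.010). Leaving out IgG mouse 49 gave 0.78 (adjusted p = 0.23) and 0.59 (adjusted p = 0.47) instead. The panel shares of these alternatives are not given, so a pass in them is not read as particular to the members.

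Between the sites, GAPDH was the one member that differed. It was lower in the leptomeninges than on penetrating vessels in 7 of 7 mice on both scales. The log2 count of GAPDH was 9.30 and 10.05 (leptomeninges and penetrating vessels) in IgG mouse 29, 9.43 and 11.81 in mouse 37, and 8.80 and 10.26 in mouse 49. In 3D6 mice it was 8.27 and 9.75 in mouse 72, 8.88 and 9.91 in mouse 77, 8.85 and 9.39 in mouse 81, and 8.58 and 9.75 in mouse 83. On log2 counts the lowering was at least 0.54 in each mouse and was largest in mouse 37. On log2 ratios it was smallest in mouse 37 (-0.56) and largest in mouse 49 (-1.99). The mean difference was -1.29 on log2 counts (standard error 0.34, 0.41-fold, adjusted p = 0.0015 in limma, exact sign-flip p = 0.016, the smallest that 7 mice allow).

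On the log2 ratio scale GAPDH was lower, with a difference of -1.34 (standard error 0.20, 0.40-fold, adjusted p = 0.00040 in limma, exact sign-flip p = 0.016). It was the 1 member of 4 that passed, where 50.0% of the panel passed on ratios and 25.0% on counts, and 14.3% and 10.7% of the panel were lower in the leptomeninges in all mice. The positive-control factor of the instrument, which multiplies the deposited counts but cancels in ratios, was high in the penetrating regions of mice 77 and 81 (mean log2 0.77 and 1.02, against -0.48 to 0.08 in all other sets of regions). With that factor undone, the difference of GAPDH on log2 counts was -1.16 (adjusted p = 0.045 in limma). With the variances not moderated, the adjusted p in limma was 0.022 on counts and 0.0096 on ratios.

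The other 3 probes did not pass between the sites. Histone H3 differed by 0.23 (95% interval -0.29 to 0.76) on log2 ratios and was higher in the leptomeninges in 6 of 7 mice, the exception being IgG mouse 49. S6 differed by -0.46 (-1.06 to 0.14, adjusted p = 0.19 in limma) and Ki-67 by -0.02 (-0.44 to 0.40). With the 6 regions of high background left out, S6 was called lower in the leptomeninges on the ratio scale (-0.63, adjusted p = 0.022 in limma) and Histone H3 higher on log2 counts (0.61, adjusted p = 0.021), and without IgG mouse 37 altogether S6 was at -0.80 on ratios (adjusted p = 0.0053). Leaving out IgG mouse 49 instead moved S6 to -0.17 (adjusted p = 0.67). The panel shares of these fits are not given, and leaving out the 6 regions was chosen after the data were seen. In some comparisons limma set 1 common variance for all probes, so the standard error and the adjusted p there rest on the panel. These were the comparisons that involve the sites on log2 counts and on ratios to GAPDH, Histone H3 or S6, all comparisons per nucleus, and those on penetrating vessels over Histone H3 or S6.

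Ratios among the probes remove whatever all probes of a region share, including the negative controls, the positive-control factor and the area. In the leptomeninges, Histone H3 and S6 rose relative to GAPDH in 3D6 mice. On log2 counts, where no member passed, Histone H3 differed by 0.54, S6 by 0.67 and GAPDH by -0.53. Each ratio therefore includes the difference of its denominator as well. The ratio of S6 to GAPDH counts was 2.94, 2.37 and 3.09 in IgG mice 29, 37 and 49 and 8.21, 4.57, 7.0 and 6.42 in 3D6 mice 72, 77, 81 and 83. Every 3D6 mouse thus lay above every IgG mouse. On the log2 scale the means were 1.48 ± 0.20 (SD, n = 3) and 2.68 ± 0.36 (SD, n = 4), a difference of 1.20 (standard error 0.39, 2.30-fold, adjusted p = 0.023 in limma over 27 probes divided by GAPDH, exact permutation p = 0.029), and 1.12, 0.95 and 1.48 within the runs.

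For Histone H3, the ratio to GAPDH was 1.48, 1.46 and 1.24 in IgG mice and 3.78, 3.49, 2.17 and 2.57 in 3D6 mice, without overlap. The log2 difference was 1.08 (standard error 0.39, 2.11-fold, adjusted p = 0.043 in limma, exact permutation p = 0.029), with 0.93, 1.25 and 1.35 within the runs. Ki-67 over GAPDH differed by 0.49 (95% interval -0.31 to 1.29, adjusted p = 0.31). Over GAPDH 2 of 3 members passed, where 25.9% of the 27 probes did and the panel median was 0.64, and 25.9% of the panel had all 3D6 mice above all IgG mice. Turned over, the same 2 ratios are adjusted among other probes: GAPDH over Histone H3 had an adjusted p of 0.013 in limma and GAPDH over S6 one of 0.051. S6 over Histone H3 differed by 0.13 (-0.63 to 0.88, adjusted p = 0.81), where 44.4% of the probes divided by Histone H3 passed. Ki-67 over S6 was lower in all 4 3D6 mice than in all IgG mice, with a difference of -0.71 (adjusted p = 0.20 in limma, exact permutation p = 0.029). The panel median over S6 was -0.71 as well, so Ki-67 moved as a typical probe divided by S6. No member passed over S6, where 14.8% of the panel did.

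These 2 calls also depended on single mice. S6 over GAPDH was not called without 3D6 mouse 83 (1.20, adjusted p = 0.062 in limma) or when any of the 3 IgG mice was left out, with values of 1.24 for mouse 29 (adjusted p = 0.076), 1.09 for mouse 37 (0.092) and 1.28 for mouse 49 (0.053). Histone H3 over GAPDH was called with 1 mouse left out only when that mouse was 81 (1.22, adjusted p = 0.015), and its difference ranged from 0.95 to 1.22 over these fits.

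**Figure D3:**
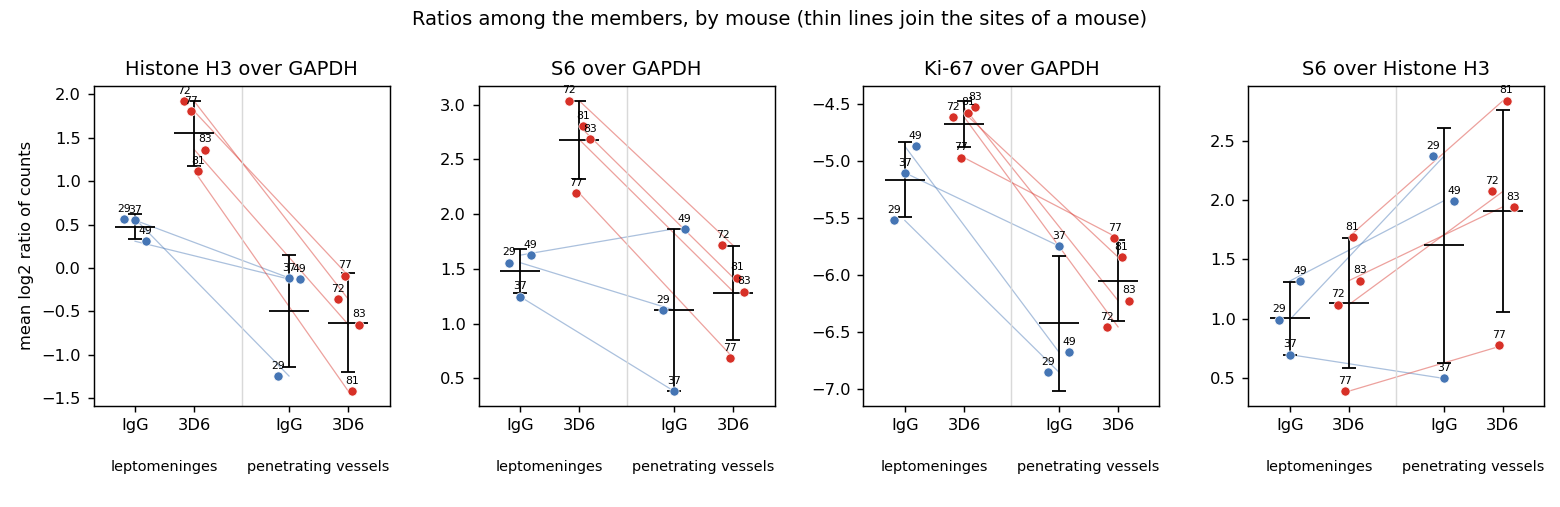
Mean log2 ratio of counts between pairs of the 4 probes (panels) in each mouse, by site and group (IgG mice in blue and 3D6 mice in red with their numbers, thin lines joining the 2 sites of a mouse, black bars for mean and SD over 3 or 4 mice, different axes between panels). In the leptomeninges the ratios of Histone H3 and S6 to GAPDH are higher in all 3D6 mice than in all IgG mice (differences 1.08 and 1.20), and both groups overlap on penetrating vessels.

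On penetrating vessels the same ratios overlapped between the groups and 0% of the panel passed over any denominator. S6 over GAPDH was 2.18, 1.30 and 3.64 in IgG mice and 3.28, 1.61, 2.68 and 2.45 in 3D6 mice, a log2 difference of 0.15 (95% interval -0.84 to 1.15). Histone H3 over GAPDH differed by -0.13 (-1.15 to 0.89) and S6 over Histone H3 by 0.29 (-0.93 to 1.51). The treatment difference was larger in the leptomeninges by 1.21 for Histone H3 over GAPDH (adjusted p = 0.074 in limma) and by 1.05 for S6 over GAPDH (adjusted p = 0.11), neither of which passed, and the exact permutation p was 0.029 for both. Without the regions of high background S6 over GAPDH passed (1.26, adjusted p = 0.028 in limma) and Histone H3 over GAPDH did not (1.16, adjusted p = 0.062). That fit was chosen after the data were seen, and its panel share is not given. In the fits of all regions the panel passed at 7.41% over GAPDH, 7.41% over Histone H3 and 3.70% over S6. Its median over GAPDH was 0.62.

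Between the sites, the ratios of Histone H3 and S6 to GAPDH rose in the leptomeninges, as did most of the panel: 88.9% of the 27 probes divided by GAPDH passed, and 66.7% were higher there in all mice. The log2 difference was 1.57 for Histone H3 (7 of 7 mice, exact sign-flip p = 0.016) and 0.88 for S6 (6 of 7 mice, the exception being IgG mouse 49, exact sign-flip p = 0.031), beside a panel median of 1.27. Without moderation of the variances their adjusted p-values in limma were 0.0015 and 0.0032. Ki-67, which lay at the level of the negative controls and had a site difference of -0.02 of its own, stood at 1.32 over GAPDH, a value that repeats the difference of GAPDH to the negative controls. GAPDH, the shared denominator, was itself lower in the leptomeninges, so none of these values is independent of that difference. S6 over Histone H3 was lower, with a difference of -0.70 (standard error 0.30, adjusted p = 0.046 in limma, exact sign-flip p = 0.031) and the same sign in 6 of 7 mice, where 48.1% of the panel passed over Histone H3 and 29.6% over S6. In 6 of 7 fits with 1 mouse left out it was not called (-0.51 without IgG mouse 29, adjusted p = 0.19), the exception being the fit without IgG mouse 37 (-0.90, adjusted p = 0.036), and it was not called without moderation of the variances (adjusted p = 0.052).

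The number of nuclei per region, counted by the instrument from the DNA stain, gives a measure of cell content that does not come from a probe. It differed more by scan than by group. In the 48 regions of mice 29 and 72, whose scan names carry "scan2" and which were read in the same run, the median was 103 nuclei (19 to 143), and in the 118 regions of the other 5 mice it was 25 nuclei (6 to 71). Each scan set held mice of both groups. A warning for few nuclei stood on 43 of the 166 regions, all with 19 nuclei or fewer, and only 1 of them was in mice 29 and 72. The lowest counts were in IgG mouse 37, whose 10 leptomeningeal regions had a median of 11 nuclei and all carried the warning.

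Leptomeningeal regions of IgG mice had a geometric mean of 91.8, 11.6 and 17.2 nuclei in mice 29, 37 and 49, and those of 3D6 mice had 95.2, 20.1, 31.2 and 38.0 in mice 72, 77, 81 and 83. The mean log2 nuclei were 4.72 ± 1.59 (SD, n = 3) and 5.28 ± 0.94 (SD, n = 4), a difference of 0.56 (exact permutation p = 0.51, adjusted over 3 comparisons p = 0.63) beside a spread that includes the high counts of mice 29 and 72. Within the 3 runs the 3D6 mice lay above the IgG mouse by 1.00, 0.80 and 0.053 in log2 nuclei, the last being the run of mice 29 and 72. Within the other 5 mice, both IgG mice lay below the 3 3D6 mice, at 3.82 ± 0.41 (SD, n = 2) and 4.85 ± 0.47 (SD, n = 3), a comparison of so few mice that it cannot reach 0.05 (exact permutation p = 0.20 over 10 splits). On penetrating vessels the difference was -0.24 (exact permutation p = 0.63), and between the sites it was -0.21 (exact sign-flip p = 0.36).

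**Figure D4:**
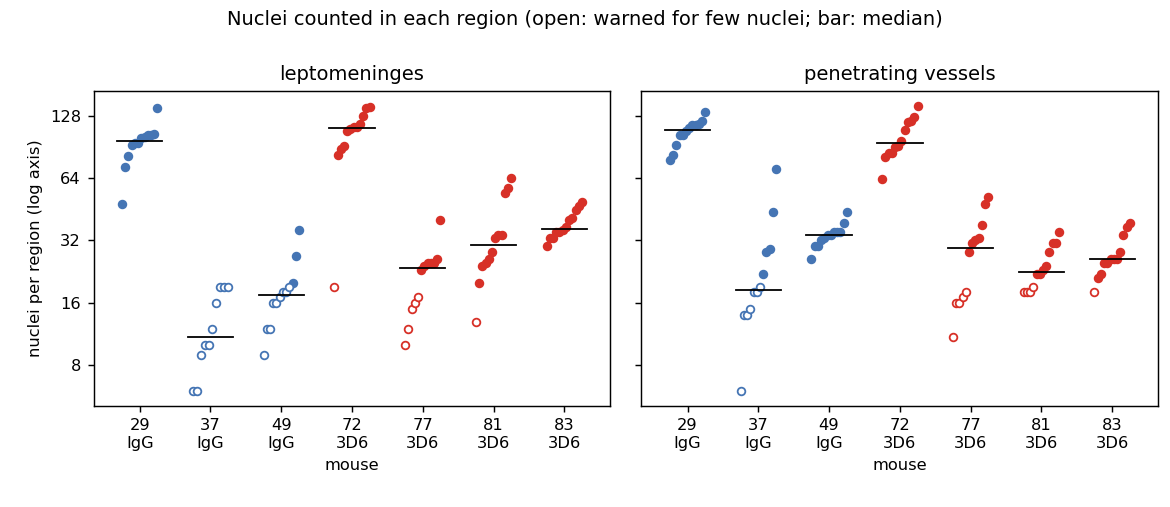
Nuclei counted per region in each mouse (log axis) in the leptomeninges and on penetrating vessels, 1 point per region with IgG mice in blue and 3D6 mice in red; open points carry the warning for few nuclei and black bars are medians. Mice 29 and 72 have a median of 103 nuclei per region and the other 5 mice 25, and all 10 leptomeningeal regions of mouse 37 are open.

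Divided by the nuclei of the same region, no member passed between the groups at either site, and none of the 28 probes did (0%). Unadjusted, 1 probe in the leptomeninges and 0 on penetrating vessels were under 0.05 in limma. The spread between mice was wide on this scale: GAPDH per nucleus in the leptomeninges had a log2 mean of 4.46 ± 1.58 (SD, n = 3) for IgG and 3.37 ± 1.22 (SD, n = 4) for 3D6, with mouse 29 the lowest IgG mouse (2.78) and mouse 72 the lowest of all (1.70). With the run as a block, so that mice 29 and 72 were compared with each other, GAPDH per nucleus was called lower in 3D6 mice in the leptomeninges. The panel share of that fit is not given, and the panel median without the block was already -0.52. Between the sites GAPDH per nucleus was lower in the leptomeninges, with a log2 difference of -1.03 (standard error 0.31, adjusted p = 0.0050 in limma, exact sign-flip p = 0.016, lower in 7 of 7 mice), the 1 member that passed where 28.6% of the panel did. Without the regions of high background it was -0.71 (adjusted p = 0.0035 in limma). Histone H3 and Ki-67 per nucleus were then called higher in the leptomeninges. That fit was chosen after the data were seen, and its panel share is not given. Since Ki-67 lay at the level of the negative controls, its call is not read as more Ki-67 per cell. With the variances not moderated the adjusted p of GAPDH per nucleus was 0.031 in limma. GAPDH per nucleus was not called without mice 29 and 72 (-1.06, adjusted p = 0.070 in limma) or with the positive-control factor undone (-0.90, adjusted p = 0.11). No member passed the test of a treatment difference per nucleus between the sites, where 3.57% of the panel did.

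Within a mouse and site, regions with more nuclei had on average higher Histone H3 and S6, while the sign for GAPDH depended on the regions used. Over the 166 regions, with the mean of each mouse and site removed, the Pearson correlation of the log2 ratio with log2 nuclei was 0.29 for Histone H3 (Spearman 0.35, slope 0.46), the highest of the 28 probes. It was 0.25 for S6 (Spearman 0.31, slope 0.36), the second highest, and 0.20 for Ki-67 (Spearman 0.24), the fourth. GAPDH had -0.13 (Spearman -0.06), the second lowest, and the panel median was 0.09. A slope of 1 would mean a level in proportion to the nuclei, and the slopes of Histone H3 and S6 over all regions lay below that.

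The relation varied from mouse to mouse. For Histone H3 it was positive in 11 of 14 sets of 10 to 12 regions, from -0.43 in leptomeningeal regions of mouse 37 to 0.84 in penetrating regions of the same mouse. For S6 it was positive in 10 of 14 sets (-0.59 to 0.80), for Ki-67 in 11 (-0.22 to 0.71) and for GAPDH in 7 (-0.75 to 0.59). On log2 counts the correlations were 0.17 for Histone H3, 0.19 for S6, 0.08 for Ki-67 and -0.11 for GAPDH, beside a panel median of 0.03. Without the regions warned for few nuclei, 123 were left and Histone H3 reached 0.44 on the ratio scale (slope 1.15) and S6 0.35 (slope 0.71), the highest and the third highest of the panel. GAPDH then had 0.05, place 19 of 28 and opposite in sign to its value over all regions, and Ki-67 had 0.19, beside a panel median of 0.13. The negative controls had a correlation of -0.02 with nuclei. These regions share mice, sections and runs, and no p is given.

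**Figure D5:**
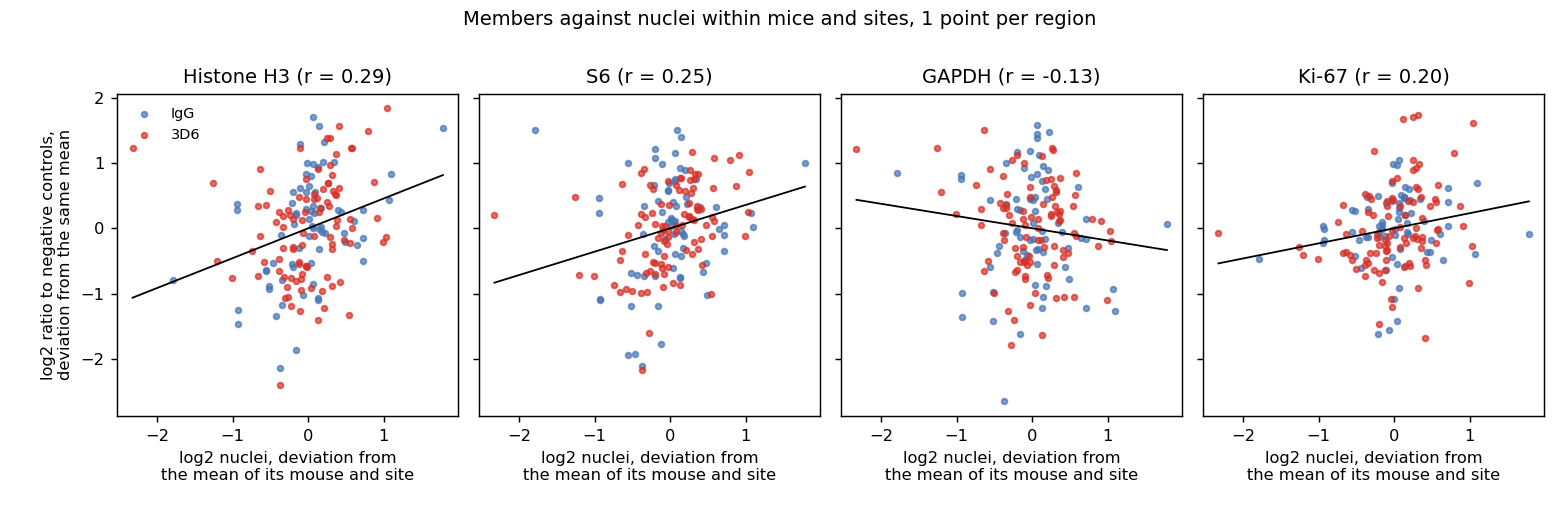
Log2 ratio to the negative controls of each probe (panels) against log2 nuclei, both as deviations from the mean of their mouse and site, 1 point per region (166 regions, IgG in blue and 3D6 in red) with the least-squares line. Histone H3 (r = 0.29) and S6 (r = 0.25) are higher in regions with more nuclei. Ki-67, which lay at the level of the negative controls, has r = 0.20, and 0.08 on log2 counts. GAPDH has r = -0.13, which turned to 0.05 without the regions warned for few nuclei.

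The 3 housekeepers moved together from region to region. On the log2 ratio scale, with the mean of each mouse and site removed, the correlation was 0.67 between Histone H3 and S6, 0.60 between S6 and GAPDH and 0.51 between Histone H3 and GAPDH, and the first 2 of these were positive in 14 of 14 sets of regions and the last in 12. Ki-67 had 0.31 with Histone H3, 0.25 with S6 and 0.26 with GAPDH. On log2 counts the 6 correlations were 0.69 to 0.89 over all regions, with the regions of high background in mouse 37 included. Their medians over the 14 sets were 0.55 to 0.87, and the lowest value in a set was -0.40, for S6 and GAPDH. The median over all 378 pairs of probes was 0.19 on the ratio scale, and all ratios share the negative controls of their region as denominator.

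By the highest correlation of log2 ratios, the 3 probes most like each housekeeper included immune probes as well as other housekeepers. Histone H3 was followed by S6 (0.67), PD-L1, an inhibitory checkpoint ligand (0.62), and GAPDH. S6 was closest to PD-L1 (0.77), then Histone H3 and BatF3, a transcription factor of dendritic cells (0.66). GAPDH was closest to CD14, a co-receptor for lipopolysaccharide on monocytes and macrophages (0.74), then BatF3 (0.71) and S6, and CD14 was also the probe with the lowest correlation with nuclei of the panel (-0.20). Ki-67 had no close partner, with CTLA4, an inhibitory receptor of T cells, at 0.33 and the integrin CD11b at 0.32. On log2 counts the same partners of the housekeepers had correlations of 0.79 to 0.90 and these partners of Ki-67 0.80 and 0.81.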

How the data were processed

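GeoMx protein data of 7 PDAPP mice were analysed from the deposited count table and summary of regions. The authors counted tags on the nCounter instrument. The deposited counts are fractional, since they carry calibration and positive-control factors, and they had not been divided by negative controls, nuclei or area. The summary holds the nuclei count of each region and its positive-control ratio, both deposited as the authors' instrument gave them. Tools for the tag alignment and a genome build do not apply. The methods give sections of 10 μm and the sample labels 5 μm.

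Log2 counts (no pseudocount), log2 ratios to the negative controls (geometric mean of 3), log2 counts per nucleus and log2 ratios to GAPDH, Histone H3 or S6 were averaged over the regions of a mouse. They were compared with limma 3.58.1 in R 4.3.3 (empirical Bayes moderation, two-sided), with the Benjamini-Hochberg adjustment over all 28 probes other than negative controls (27 for ratios) and a threshold of 0.05. Sites were compared within mice with the groups weighted equally. Single values had two-sided exact tests over 35 splits or 128 sign flips of the mice. Nothing says how the mice were assigned to slides, and p-values cover the spread between these mice. Count models were not used, because the deposited counts are not whole. All 4 members were named in every comparison, and for likeness the 3 probes of highest correlation, of which 1 is not reported here. The members, lists and tests were chosen with earlier results of these data known. Alternatives changed the average, pseudocount, negative control, filter (2 times the negative controls), run, moderation, adjustment, regions and mice, with statmod 1.5.0 for the fit of all regions with the mouse as a block; leaving out regions of high background (over 10 times the median) and mice 29 and 72 was added after the data were seen. The fits were tested on simulated panels. Python 3.11.15 with numpy 2.4.6, scipy 1.17.1, pandas 2.3.3 and matplotlib were used for the rest. The authors' normalized tables hold scores scaled per probe and were not used.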

Additional observations from a re-analysis of the deposited data

Results flagged for a closer look

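Of 26 sets of 4 values tested for a mouse far from the others of its group, 1 stood out, where chance gives about 1 in 20. It was the number of nuclei on penetrating vessels of 3D6 mice: mouse 72 had a mean log2 of 6.62, and the other 3 mice 4.55 to 4.73. IgG mouse 29, the other mouse with "scan2" in its scan name, was high as well (6.72). The levels of Histone H3, S6, GAPDH and Ki-67 in mouse 72 did not stand out in the same way. The cause was not tested. None of 18 tests of a treatment difference between the sites passed for the members and their ratios, with a smallest adjusted p of 0.060 in limma.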

How the results depend on the processing

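No paired analysis was possible between the groups because they share no mouse numbers. Each run held mice of both groups, so the run was entered as a block instead and differences within the runs are given. Of 841 alternatives tried for single values of the members, 720 left direction and call as they were, 60 reversed a direction, 39 lost a call and 22 gained one, and the cause was not tested. The lower GAPDH of the leptomeninges kept its direction and its call under every alternative on counts and on ratios. In the leptomeninges, the 2 calls between groups on ratios to the negative controls became 0 with the Holm-Sidak adjustment, Rt IgG2a alone, no regions of few nuclei or no mice 29 and 72, and 1 with Rt IgG2b alone or no moderation. The 2 calls among ratios of members became 1 with medians over regions and 0 without regions of few nuclei or without mice 29 and 72, and the 0 calls per nucleus became 1 with the run as a block. Between the sites, the 1 call on counts became 2 without regions of high background, the 1 on ratios became 2 without these or without regions of few nuclei, and the 1 per nucleus became 3 without regions of high background and 0 with the positive-control factor undone or without mice 29 and 72. The 0 calls for a treatment difference between sites became 2 on counts with medians, with probes over 2 times the negative controls or without mice 29 and 72. On ratios they became 1 with Rb IgG alone, with that filter or without regions of few nuclei, and 2 without regions of high background, where 1 ratio of members was also called. With 1 mouse left out, calls between groups in the leptomeninges ranged from 0 to 2 on ratios and from 0 to 2 among ratios of members. Calls between sites then ranged from 1 to 3 per nucleus and from 1 to 2 on ratios, and for the difference between sites from 0 to 2 on counts, 0 to 2 on ratios and 0 to 1 among ratios of members. On log2 counts the correlation of Ki-67 was 0.75 with Histone H3, 0.69 with S6 and 0.72 with GAPDH, against 0.31, 0.25 and 0.26 on ratios. The medians over the 14 sets of regions were 0.55, 0.56 and 0.55 on counts. The directions that reversed belonged to differences that had not passed a test. For treatment in the leptomeninges, GAPDH on ratios went to -0.30 with Rt IgG2a alone and -0.032 without regions of few nuclei, Ki-67 on counts to 0.054 without regions of high background and 0.19 without regions of few nuclei, and S6 over Histone H3 to -0.043 without the latter. On penetrating vessels, GAPDH on ratios went to 0.17 with Rb IgG alone, 0.019 with medians, 0.0057 without regions of few nuclei and 0.19 without mice 29 and 72, and Histone H3 to 0.040 with Rb IgG alone. S6 on ratios went to -0.12 with Rt IgG2a alone, -0.071 with medians, -0.036 with the run as a block and -0.25 without regions of high background, where S6 over GAPDH went to -0.066 and Ki-67 on counts to 0.15. Between sites, Histone H3 on counts went to -0.071 and Ki-67 to -0.19 on counts and 0.018 on ratios without mice 29 and 72, and Ki-67 to -0.037 on counts with the run as a block and 0.21 on ratios with Rt IgG2a alone. For the treatment difference between sites, GAPDH went to -0.029 on ratios with Rt IgG2a alone and to -0.13 on counts without regions of high background, where Ki-67 went to -0.10. Ki-67 over GAPDH went to -0.10 with medians, -0.041 without regions of few nuclei and -0.0014 without mice 29 and 72, and S6 over Histone H3 to 0.10 without regions of high background and 0.14 without regions of few nuclei. With 1 mouse left out, the treatment difference in the leptomeninges ranged from -0.076 to 0.23 for GAPDH on ratios, from -0.16 to 0.12 for Ki-67 on counts and from -0.059 to 0.37 for S6 over Histone H3. On penetrating vessels it ranged from -0.45 to 0.18 for GAPDH, from -0.40 to 0.17 for Histone H3 and from -0.67 to 0.65 for S6 on ratios, from -1.17 to 0.26 for Ki-67 on counts, and from -0.51 to 0.13, -0.22 to 0.52 and -0.27 to 0.66 for Histone H3 over GAPDH, S6 over GAPDH and S6 over Histone H3. The difference between sites ranged from -0.13 to 0.57 for Histone H3 and from -0.19 to 0.39 for Ki-67 on counts and from -0.12 to 0.10 for Ki-67 on ratios. The treatment difference between sites ranged from -0.16 to 0.56 for GAPDH on ratios, from -0.14 to 1.02 for Ki-67 on counts, from -0.19 to 0.39 for Ki-67 over GAPDH and from -0.54 to 0.25 for S6 over Histone H3. Log2 nuclei differed between groups by -0.034 to 1.46 in the leptomeninges and by -0.75 to 0.42 on penetrating vessels. Leaving out regions of high background or mice 29 and 72 was chosen after seeing the data. With 3 and 4 mice, exact tests could not go below 0.029.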
